A study of Mus musculus with 6 samples.

Results

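The genes described here encode the proteins of the cytosolic ribosome. The rule that finds them reads symbol and class and no measured value. It takes every protein-coding row of the deposited table whose symbol begins with Rpl, Rplp, Rps or Rpsa followed by a ribosomal protein number, without the S6 kinases, the Rps19-binding protein and rows named as pseudogenes. This gave 85 genes of the 54532 rows, 52 of the large subunit and 33 of the small subunit, spread over 19 chromosomes. They were measured by RNA sequencing in 6 mouse libraries that the labels call lung, 3 labelled young (mice aged 3 months) and 3 labelled aged (mice aged 18 months), and the question is how transcript levels differ between these ages. The sources used here do not give strain, sex or genotype. Nor do they say whether each library is its own mouse, and a p-value therefore weighs a difference only against the spread of these 6 libraries. Higher and lower always describe the libraries labelled aged against those labelled young.

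A cytosolic ribosome is built from a small subunit, which reads the messenger, and a large subunit, which joins amino acids. Each subunit holds a long ribosomal RNA clothed with proteins, most of which are needed in equal numbers. The subunits are put together in the nucleolus by a large set of assembly factors that do not stay in the finished particle. Ribosomal protein messengers are among the most abundant of the cell, and most begin with a C followed by an unbroken run of pyrimidines, the terminal oligopyrimidine (TOP) motif, through which mTORC1 and Larp1 set their translation and stability. Several ribosomal proteins that are not built into a particle bind Mdm2, the ligase that marks p53 for degradation.

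The libraries hold little of what defines whole lung. Of 29 markers of lung epithelium, endothelium and blood, 3 reached 10 FPKM (fragments corrected for the length of the gene and the size of the library) in every library, namely Pdpn, Aqp5 and Cav1, and the summed level of 5 alveolar type 2 markers was at most 0.374 FPKM. Fibroblast and mesenchyme markers summed to 1149 to 1178 FPKM in the libraries labelled young and 912 to 947 in those labelled aged, where 5 of 7 reached 10 FPKM everywhere and Dcn and Lum were near 0. The fall was in the collagens Col1a1, Col1a2 and Col3a1, while Vim overlapped between the groups (478 to 506 and 491 to 502 FPKM). Summed levels of 4 cycling markers ran from 266 to 275 FPKM and from 301 to 316 FPKM, with Ccnb1 and Aurka higher, Top2a overlapping and Mki67 lower (73.9 to 77.6 and 52.5 to 56.6 FPKM). Alveolar type 1 markers summed to 256 to 262 and 406 to 419 FPKM, almost all from the 3 genes named above. Hopx, also in that list, was lower without overlap (9.998 to 10.37 and 5.68 to 6.48 FPKM), and Ager was at most 0.679 FPKM. Leukocyte markers summed to 5.91 to 7.73 and 15.8 to 16.9 FPKM, almost all Cd68, with Ptprc at most 0.0953 FPKM, and 4 muscle markers to 5.42 to 6.22 and 9.65 to 14.5 FPKM. These sums move with the group, and their part in the results was not tested. Kidney transcripts set young libraries 1 and 3 apart: 8 kidney markers summed to 133 and 26.6 FPKM there and to at most 1.64 FPKM in the other libraries. Aqp2 set neither of these libraries apart, and Slc12a1 did not set young library 3 apart. Most of both sums was Kap, at 116 FPKM in young library 1 and 21.9 FPKM in young library 3. Leading counts are therefore also given without those libraries. That leaves 1 library labelled young against 3 labelled aged, so the spread comes from the aged libraries alone, the lone library is assumed to vary like them, and a call lost there is no sign of a smaller change. In bulk RNA, fewer cells of a type and less RNA per cell cannot be told apart.

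Ribosomal protein transcripts took 3.78%, 3.99% and 4.04% of the reads of the libraries labelled young and 3.69%, 3.65% and 3.37% of those labelled aged. The groups did not overlap, although young library 1 and aged library 1 lay close to each other. Among the 3 aged libraries, library 3 had the lowest value for 61 of the 84 tested genes, and young library 1 had the lowest value of its group for 57. Within a group, single genes were even: the median coefficient of variation was 4.74% over the libraries labelled young and 5.72% over those labelled aged.

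Of the 85 genes, 84 were tested, and 40 fell, 6 rose and 38 did not pass the threshold (limma on log2(FPKM + 1), adjusted p under 0.05 over 15197 genes). Among all tested genes 32.3% were lower and 27.7% were higher, so the lower share of the ribosomal protein genes (47.6%) was above that background and the higher share (7.14%) below it. The 6 genes that rose include Rpl3l, which passed the filter on low levels through the aged group alone and lost its call without that filter. The median log2 fold change was -0.15, against -0.027 for all tested genes, and 65 of the 84 values were below 0. For 44 genes every aged library was below every young one and for 6 genes above, where all tested genes gave 35.6% and 31.3%. Ribosomal protein genes are far more abundant than most: 64 of them had a mean of at least 100 FPKM, and 33 of these 64 (51.6%) were lower and 4 (6.25%) higher, beside 43.0% lower and 31.9% higher among the 379 other genes of that abundance.

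The falls were mostly small. On mean FPKM the 40 genes that fell did so by 1.10-fold to 2.10-fold, 17 of them by less than 1.25-fold, 15 by 1.25-fold to 1.5-fold and 8 by more than that. Large-subunit genes gave 28 lower, 5 higher and 18 not past the threshold (median -0.21), and small-subunit genes 12 lower, 1 higher and 20 not past it (median -0.10); the difference between the subunits was not tested. Genes not past the threshold had log2 fold changes from -0.25 to 0.45, 25 of them below 0. Without young libraries 1 and 3 (1 library against 3) the counts were 29 lower and 3 higher and the median log2 fold change -0.17, where the calls over all genes also went from 9115 to 6234; without aged library 3 they were 36 lower and 10 higher. Quantile normalization, which forces all libraries to one distribution, gave 34 lower and 11 higher.

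**Figure D1:**
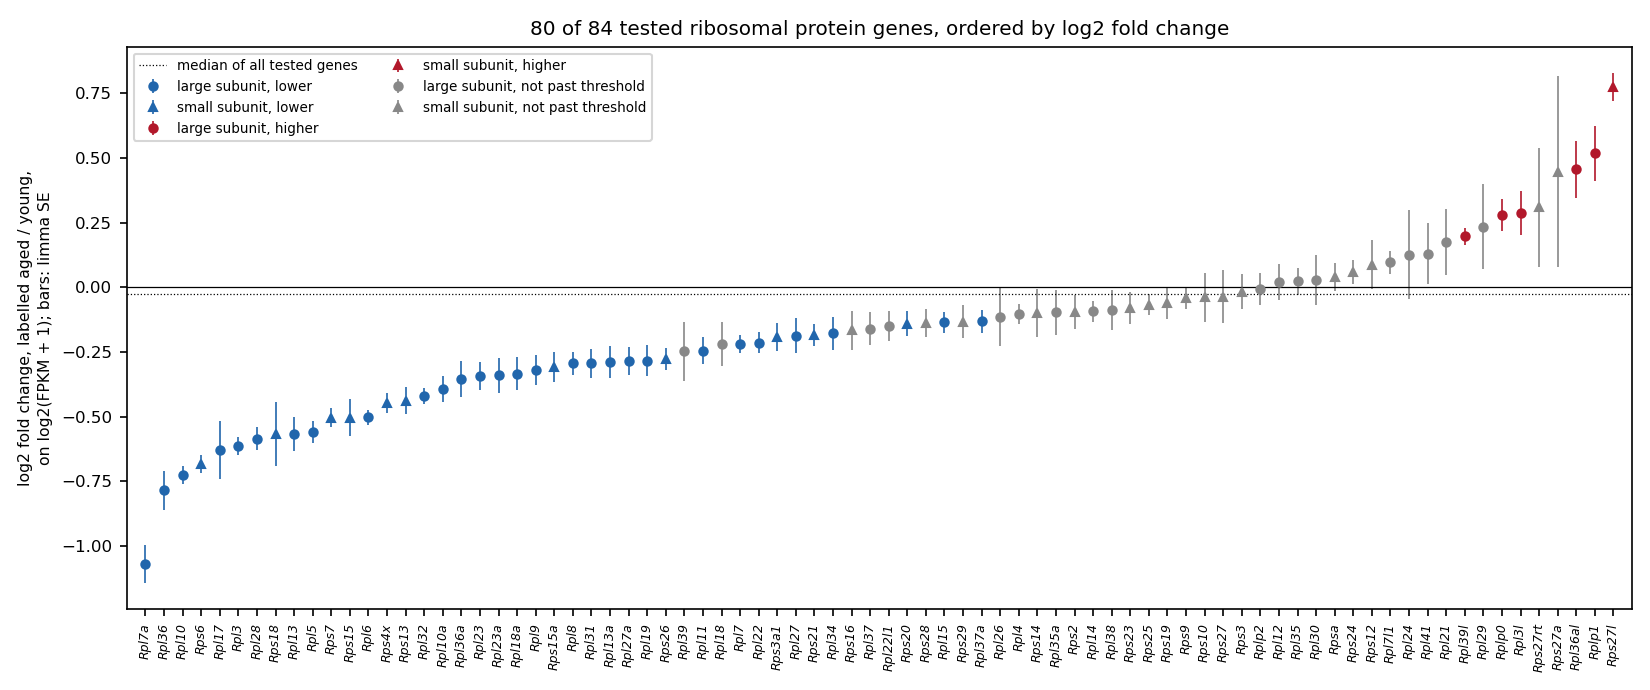
Log2 fold change of 80 of the 84 tested ribosomal protein genes (horizontal axis, in order of the change) between libraries labelled aged and labelled young, with limma standard errors as bars; circles are large-subunit and triangles small-subunit genes, and the dotted line marks the median of all tested genes (-0.027). Most genes lie in a shallow slope below 0, from Rpl7a at -1.07, and 6 genes that passed the threshold lie above it, up to Rps27l at 0.78 (Rplp0 does not under quantile normalization). The call of Rpl3l depends on the filter on low levels.

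The 60 bases around the annotated start are shown for 4 genes that fell and 2 that rose, since the TOP motif would begin there. They run from 40 bases before the start to 20 after it on the gene's own strand (RefSeq, GRCm38, the assembly also called mm10), and capitals mark a pyrimidine run that begins with C, is at least 5 bases long and begins between 15 bases before and 20 after the start.
Rpl7a, chr2:26910767-26910826, plus strand: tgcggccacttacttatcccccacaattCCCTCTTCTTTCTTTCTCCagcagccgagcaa
Rpl10, chrX:74270776-74270835, plus strand: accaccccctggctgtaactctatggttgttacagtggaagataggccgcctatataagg
Rps6, chr4:86857348-86857407, minus strand: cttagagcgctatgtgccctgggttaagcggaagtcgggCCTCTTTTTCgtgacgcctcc
Rpl28, chr7:4792925-4792984, plus strand: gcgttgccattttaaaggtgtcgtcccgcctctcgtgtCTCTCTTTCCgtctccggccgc
Rps27l, chr9:66946046-66946105, plus strand: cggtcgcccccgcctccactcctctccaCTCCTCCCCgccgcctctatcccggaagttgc
Rplp0, chr5:115559427-115559486, plus strand: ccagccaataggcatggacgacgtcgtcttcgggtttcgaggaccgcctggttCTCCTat

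Rpl7a carries a run of 19 bases, Rps6 and Rpl28 runs of 10, Rps27l a run of 9 and Rplp0 a run of 5, while the Rpl10 window holds none. Rps27l has a second RefSeq start, not shown, whose window (chr9:66946373-66946432) holds no run. The match depends on where the start is annotated and is a description of these letters, not of a site. Of the 84 tested genes, 64 matched the RefSeq promoter table, with 76 starts. A run of at least 8 bases was found at 27 of these 76 starts (35.5%), against 11.6% of all 32851 promoters of the table. Starts of genes that fell and of genes not past the threshold held it about equally, at 13 of 35 (37.1%) and 13 of 34 (38.2%), and starts of genes that rose at 1 of 7. The letters CCGGAAG, a core bound by ETS factors, lay on either strand of the 300-base entries of 27 member starts (35.5%) against 8.86% of all promoters. AANATGGC, a core bound by Yy1, lay in 17 (22.4%) against 6.05%. The end of CCGGAAG can be the beginning of AANATGGC, and on the other strand CCGGAAG reads as a pyrimidine run at its beginning, so these matches can overlap one another.

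Rpl7a, a large-subunit protein, had the steepest fall. Its levels were 312, 299 and 317 FPKM in the libraries labelled young and 158, 131 and 153 FPKM in those labelled aged. The groups lay far apart, and every aged library was below every young one. Mean levels were 309 ± 9.31 and 147 ± 14.5 FPKM (SD, n = 3 each), a 2.10-fold fall (log2 fold change -1.07, SE 0.073, adjusted p = 3.8e-05). Rpl36, another large-subunit protein, was measured at 548, 631 and 660 FPKM against 365, 359 and 339 FPKM. Its young libraries were the more scattered, with library 1 the lowest, and still stood clear of the aged ones (1.73-fold lower, log2 fold change -0.78, SE 0.074). Rpl28, a large-subunit protein that budding yeast lacks, fell from 291 ± 12.1 to 194 ± 7.46 FPKM, and Rpl13, also of the large subunit, fell 1.48-fold.

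Proteins around the peptidyl transferase centre and the joining of the subunits were lower in 2 of 3 cases (66.7%). Among all tested genes 32.3% were lower, and among the ribosomal protein genes 47.6%. Rpl10, the protein whose late addition makes the large subunit fit for joining, had levels of 408, 412 and 413 FPKM in libraries labelled young and 254, 240 and 251 FPKM in those labelled aged. Each group was tight, and the gap between them was many times its spread (1.65-fold lower, log2 fold change -0.72, SE 0.035, adjusted p = 1.1e-05). Rpl3, which reaches toward the peptidyl transferase centre, fell 1.53-fold, from 214 ± 5.01 to 140 ± 2.99 FPKM. Rpl4, which lines the upper part of the exit tunnel, was measured at 580 ± 8.66 and 539 ± 13.7 FPKM, without overlap between the groups but not past the threshold (adjusted p = 0.051).

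The proteins of the 5S particle, Rpl5 and Rpl11, and Rpl23, all able to bind Mdm2, fell (3 of 3, beside 32.3% of all tested genes). Rpl5, which with Rpl11 carries 5S ribosomal RNA into the large subunit, was at 234, 240 and 247 FPKM against 166, 167 and 155 FPKM, a 1.48-fold fall (log2 fold change -0.56, SE 0.043). The groups did not overlap. Rpl11 fell less, 1.19-fold from 192 ± 9.0 to 162 ± 7.87 FPKM (adjusted p = 0.0056). Rpl23 fell 1.27-fold. Other ribosomal proteins known to bind Mdm2 went different ways: Rps7 fell, Rps27l rose, and Rpl26, Rps3 and Rps14 did not pass the threshold. The transcript of Mdm2 itself rose from 12.2 ± 0.423 to 49.4 ± 2.01 FPKM.

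Proteins around the exit tunnel, through which the growing chain leaves, fell in 5 of 8 cases (62.5%). The lower share was 32.3% over all tested genes and 47.6% over the ribosomal protein genes. Rpl17 fell 1.54-fold, Rpl23a, a docking point for factors that receive the chain, 1.27-fold, Rpl31 1.23-fold, Rpl19 1.22-fold and Rpl22 1.16-fold. Rpl35, at 312 ± 9.49 and 317 ± 18.1 FPKM, Rpl39, at 179 ± 14.6 and 151 ± 22.0 FPKM, and Rpl26, at 16.9 ± 2.72 and 15.5 ± 1.26 FPKM, did not pass the threshold. Rpl17 and Rpl26 both share reads with pseudogene copies, as described further on.

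The stalk, the flexible arm of the large subunit that recruits translation factors, had no member that fell. Of its 4 listed genes 2 rose (50%, beside 27.7% of all tested genes). Rplp0, the stalk's base and the most abundant of all ribosomal protein transcripts here, was at 1515, 1633 and 1631 FPKM in libraries labelled young and 2031, 1950 and 1825 FPKM in those labelled aged. Every aged library was above every young one, a 1.21-fold rise (log2 fold change 0.28, SE 0.063, adjusted p = 0.0074). Under quantile normalization its log2 fold change was -0.064, so its direction holds on the deposited scale and not on that one, and without young libraries 1 and 3 (1 library against 3) it was 0.24, with an adjusted p of 0.11. Rplp1, which binds the stalk base together with Rplp2, was at 1120, 1356 and 1330 FPKM against 1954, 1896 and 1603 FPKM. The groups stood apart, with a 1.43-fold rise (log2 fold change 0.52, SE 0.11, adjusted p = 0.0049). Without young libraries 1 and 3 (1 library against 3) the log2 fold change was 0.42 and the adjusted p 0.075. Rplp2, the partner of Rplp1, was at 111 ± 5.60 and 110 ± 8.07 FPKM, and Rpl12, which sits beside the stalk base, at 215 ± 15.2 and 218 ± 14.1 FPKM; for both the groups overlapped.

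**Figure D2:**
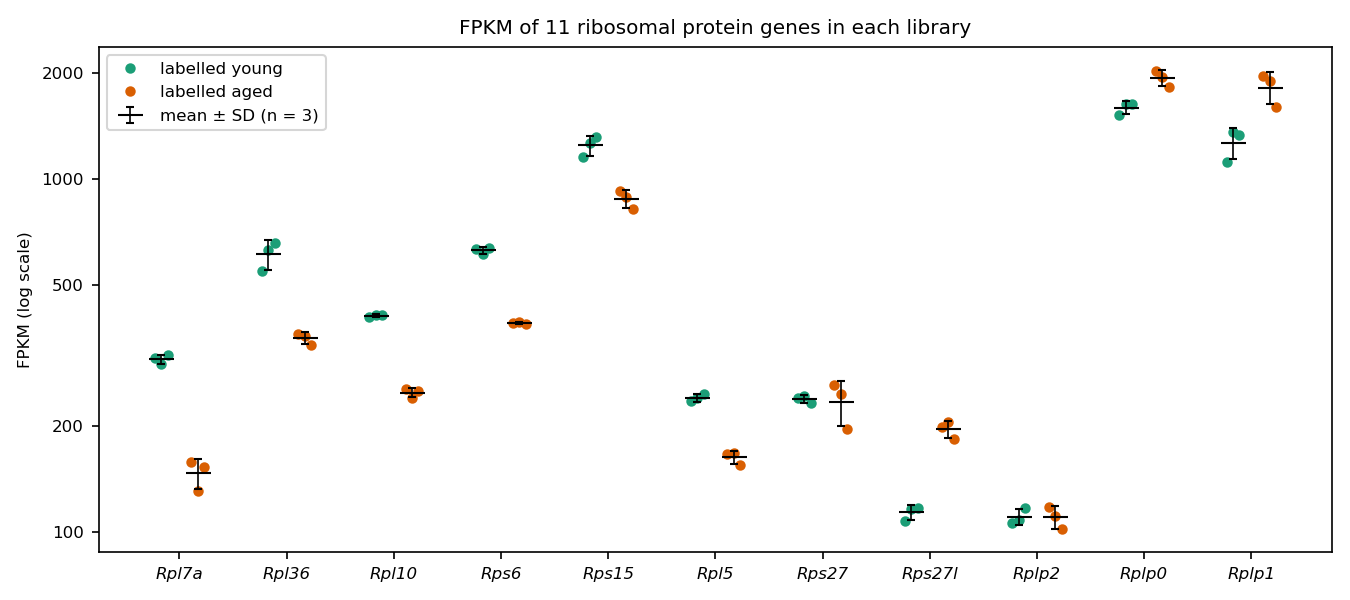
FPKM on a log axis for 11 ribosomal protein genes in each of the 6 libraries (green, labelled young; orange, labelled aged), with the mean and SD of 3 libraries in black. Rpl7a, Rpl36, Rpl10, Rps6, Rps15 and Rpl5 lie lower and Rps27l, Rplp0 (not under quantile normalization) and Rplp1 higher in every aged library, while Rps27 and Rplp2 overlap.

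In the small subunit, Rps6, the substrate of the S6 kinases downstream of mTORC1, had the largest fall. Its levels were 636, 613 and 637 FPKM in libraries labelled young and 392, 393 and 389 FPKM in those labelled aged. The aged libraries were almost identical and all far below the young ones (1.61-fold lower, log2 fold change -0.68, SE 0.035, adjusted p = 1.4e-05). Rps18, a protein of the small-subunit head, fell 1.51-fold at a low level, from 16.7 ± 0.918 to 11.04 ± 2.23 FPKM. Its log2 fold change was -0.57 (adjusted p = 0.0066), and -0.65 (adjusted p = 0.065) without young libraries 1 and 3, with 1 library against 3.

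Along the path of the messenger, 2 of 9 genes (22.2%) fell, beside 32.3% of all tested genes, and 7 did not pass the threshold. Rps15, whose tail reaches into the decoding site, was at 1158, 1266 and 1318 FPKM against 927, 890 and 822 FPKM, a 1.42-fold fall with no overlap (log2 fold change -0.50, SE 0.070). Rps26, which lies where the messenger leaves the small subunit, fell 1.21-fold. Rps28, also near that exit, was at 99.8 ± 2.75 and 90.8 ± 6.25 FPKM, without overlap but at an adjusted p of 0.064. Among the others, Rps2, Rps3, Rps14, Rps23 and Rpsa had log2 fold changes between -0.10 and 0.042. Of these, Rps3 was called higher under quantile normalization, at 0.14, and Rps2 turned with its copies, as given further on.

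Rps27a, which is made as a fusion with ubiquitin, was the least even gene. It was at 66.1, 78.7 and 72.2 FPKM in libraries labelled young and 97.1, 177 and 56.1 FPKM in those labelled aged. Aged library 2 held the highest and aged library 3 the lowest of the 6 values, and the groups overlapped (log2 fold change 0.45, SE 0.37, adjusted p = 0.33). Of the 8 listed genes mutated in Diamond-Blackfan anaemia, a failure of red cell formation, 2 fell (25%, beside 32.3% of all tested genes), Rps7 by 1.42-fold and Rpl15 by 1.10-fold. Rpl5, Rpl11 and Rps26, described above, are mutated in that disease too and are not in that list. All 3 fell, but neither they nor the list cover every gene of the disease. They therefore give no share for the genes outside the list. The other 6 of the 8 listed genes did not pass the threshold. Rps10, Rps19, Rps24, Rps29 and Rpl35a among them had log2 fold changes between -0.13 and 0.058.

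Among the 6 genes that rose were 3 paralogues, Rps27l, Rpl39l and Rpl36al, beside Rpl3l, whose call depends on the filter. Rps27l, a near copy of Rps27 that is known as a target gene of p53, was at 107, 116 and 117 FPKM in libraries labelled young and 198, 205 and 184 FPKM in those labelled aged. The groups were well separated (1.72-fold higher, log2 fold change 0.78, SE 0.054, adjusted p = 4.3e-05). Rps27 itself was at 239 ± 5.87 and 234 ± 34.2 FPKM, so Rps27l made up 30.9% to 33.6% of the summed level of the pair in libraries labelled young and 43.1% to 48.4% in those labelled aged. Rpl39l, a paralogue best known from testis, rose from 122 ± 3.41 to 140 ± 1.38 FPKM, and its share of the sum with Rpl39 was 39.7% to 42.2% against 45.0% to 52.7%.

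The other paralogues were scarce or did not pass the threshold. Rpl36al rose from 0.784 ± 0.131 to 1.45 ± 0.279 FPKM and was at most 1.35% of its sum with Rpl36a. Rpl3l, a form best known from muscle, was at 0.460, 0.491 and 0.458 FPKM against 0.743, 0.897 and 0.744 FPKM and at most 0.654% of its sum with Rpl3. It passed the filter of 0.5 FPKM in 3 libraries through the aged group alone, so its call is not independent of the filter and was lost without it (adjusted p = 0.052). Rpl7l1, a relative of Rpl7, was at 45.0 ± 0.420 and 48.2 ± 2.65 FPKM (adjusted p = 0.1), and Rpl22l1 at 70.5 ± 3.25 and 63.4 ± 4.25 FPKM (adjusted p = 0.059). Rps27rt, a retrogene of Rps27, ran from 80.4 to 164 FPKM within the libraries labelled young alone and did not pass the threshold. Rpl10l, known from male germ cells, had 0 reads in all 6 libraries, which allows up to 0.169 to 0.173 FPKM per library, and was not tested.

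The levels spanned more than 3 orders of magnitude per length. The 5 most abundant genes, Rplp0, Rplp1, Rps15, Rpl41 and Rps14, held 25.8% of the summed ribosomal protein FPKM. Rpl41, the smallest ribosomal protein, was at 863 ± 112 and 944 ± 105 FPKM and did not pass the threshold. At the low end, 9 genes were under 20 FPKM, among them Rpl24, Rpl21 and Rpl29 beside Rpl3l and Rpl36al. Finished ribosomes hold the proteins of Rpl24, Rpl21 and Rpl29 in the same number as most of the abundant ones.

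Ribosomal protein genes have left many processed pseudogenes, intronless copies of their messengers, in the mouse genome, and reads can be assigned to a copy in place of the gene. Transcripts of 1044 pseudogene rows aligned to a ribosomal protein transcript over at least 70% of their length at 90% identity or more (GENCODE M21), for 81 of the 85 genes. Of these copies, 602 had at least 1 read, at a median identity of 96.97%. The copies held 646557 reads and the genes themselves 3851170, so 14.4% of the family reads stood in rows of copies. For 56 genes that share was under 10%, and for 8 genes it was over 50%: Rps26 (63.4%), Rps3a1 (75.6%), Rpl21 (80.6%), Rpl24 (80.7%), Rps2 (94.6%), Rpl26 (94.8%), Rps10 (95%) and Rpl29 (97.0%). Whether these reads were made from the copy or from the gene was not tested.

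How alike gene and copy are is shown by 60 coding bases of Rps26 and Rpl26 and of the copies that hold most of their reads (GENCODE M21, GRCm38). The base that differs is in capitals.
Rps26, chr10:128624534-128626747, minus strand: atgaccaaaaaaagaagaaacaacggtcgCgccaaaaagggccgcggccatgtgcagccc
Rps26-ps1, chr8:107439131-107439579, minus strand: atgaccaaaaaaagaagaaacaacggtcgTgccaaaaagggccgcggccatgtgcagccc
Rpl26, chr11:68901583-68906989, plus strand: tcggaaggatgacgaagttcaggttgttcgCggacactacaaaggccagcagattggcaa
Gm15772, chr5:3236431-3236868, plus strand: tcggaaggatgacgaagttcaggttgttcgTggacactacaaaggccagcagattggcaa

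Coordinates are those of the whole gene, and positions count from 1 at the A of the start codon. Rps26-ps1 differs from Rps26 by C30T and G270A over 348 coding bases, and the stretch shown is positions 1 to 60. Gm15772 differs from Rpl26 by C177T and T288C over 438 coding bases, and the stretch shown is positions 147 to 206. A read that covers neither position is the same for gene and copy within the coding sequence.

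Over all tested copies the lower share was close to that of tested genes in general, while the more abundant copies fell more often. Rps26-ps1 was at 889, 887 and 967 FPKM in libraries labelled young and 778, 760 and 762 FPKM in those labelled aged, and fell with a log2 fold change of -0.25 where Rps26 had -0.28. Gm15772 was at 1044, 1070 and 1107 FPKM against 908, 865 and 831 FPKM and fell (log2 fold change -0.31, adjusted p = 0.0019), while the row of Rpl26 did not pass the threshold. The group difference of the family thus stood in the copy's row. Among the 54 copies with a mean of at least 20 FPKM, 35 fell, 2 rose and 17 did not pass the threshold, and 38 had the same call as their gene. The lower share of these 54 was above the 32.3% of all tested genes. Over all 236 tested copies, most of them scarce (median level 3.23 FPKM), 71 fell (30.1%, beside 32.3% of all tested genes). Another 19 rose and 146 did not pass the threshold.

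Rps2, which lines the entry of the messenger into the small subunit, was 1 of 2 genes whose direction turned when copies were added. Its own row held 43.5 to 51.9 FPKM and did not pass the threshold (log2 fold change -0.10, adjusted p = 0.25). The row of its copy Rps2-ps10, 99.4% identical, was at 1345, 1462 and 1524 FPKM in libraries labelled young and 1721, 1696 and 1544 FPKM in those labelled aged. It was higher in every aged library, by little in library 3 (log2 fold change 0.20, adjusted p = 0.047). Summed with its copies, Rps2 was called higher (log2 fold change 0.18, adjusted p = 0.039). Rpl29 turned the other way, from 0.23 in its own row to -0.12 with its copies, and passed the threshold in neither.

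When every gene was summed with its copies, 43 genes fell, 7 rose and 34 did not pass the threshold, and the median log2 fold change was -0.17. Rpl26 (-0.30), Rps10 (-0.26) and Rps28 (-0.18) were then called lower, and Rps20 lost its call (adjusted p = 0.052). Rpl4 was also called lower, with an adjusted p of 0.051 before summing and 0.046 after it. Its copies held only 15 reads beside 115890 of its own, and its log2 fold change was -0.10 in both fits. Rpl17, whose own row was uneven in libraries labelled aged (282, 345 and 380 FPKM), gave 649, 642 and 602 FPKM with its copies, against 898, 894 and 930 FPKM in libraries labelled young. Rpl21 and Rpl24 stayed low after summing, with mean levels of 10.5 and 5.04 FPKM in libraries labelled young. Among the 55 tested genes with under 10% of reads in copies, 25 fell, 5 rose and 25 did not pass the threshold (median -0.14), and among the other 29 the counts were 15, 1 and 13 (median -0.17).

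**Figure D3:**
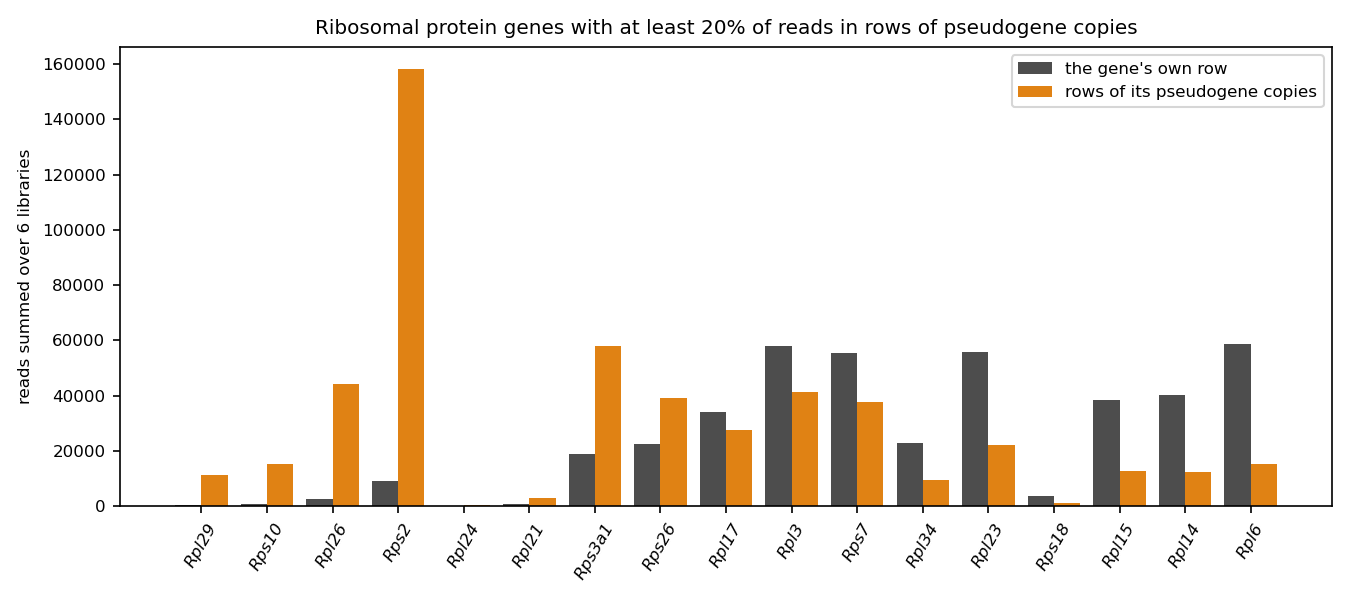
Reads summed over the 6 libraries (vertical axis) in the row of each gene and in the rows of its pseudogene copies, for ribosomal protein genes with at least 20% of reads in copies. For 8 genes, from Rpl29 to Rps26, the copies hold more reads than the gene, with the highest bar the 158328 reads in copies of Rps2.

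Of 3 cytosolic ribosomal proteins whose symbols follow another pattern, 1 fell (33.3%, beside 32.3% of all tested genes). Rack1, a scaffold protein on the head of the small subunit, fell from 283 ± 17.1 to 216 ± 15.2 FPKM. Fau, made as a fusion with a ubiquitin-like part, was at 376 ± 16.9 and 355 ± 12.2 FPKM and did not pass the threshold. Of 17 other messengers with a TOP motif, 9 fell (52.9%), 2 rose (11.8%) and 6 did not pass it, with a median of -0.19. A mean of at least 100 FPKM was reached by 11 of the 17. Among genes of that abundance outside the ribosomal proteins, 43.0% were lower and 31.9% higher. Among them, Hnrnpa1, an RNA-binding protein, fell from 244 ± 4.35 to 155 ± 1.88 FPKM, and Eef2, the elongation factor that moves the ribosome along, from 593 ± 15.6 to 453 ± 7.95 FPKM.

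Genes of ribosome assembly were mostly higher. Of 41 tested genes of the small subunit processome and 40S maturation, 28 rose, 3 fell and 10 did not pass the threshold (median 0.22), and of 39 genes of 60S assembly 28 rose, 2 fell and 9 did not (median 0.28), where 27.7% of all tested genes were higher. Pwp2, a processome protein, rose from 9.06 ± 0.153 to 16.8 ± 0.837 FPKM, and Nol6, another, from 9.66 ± 0.172 to 15.8 ± 0.619 FPKM. In the 60S list, Ftsj3, a methyltransferase of ribosomal RNA, rose from 22.0 ± 0.649 to 47.6 ± 2.12 FPKM and Nop2, another, from 26.2 ± 0.571 to 43.6 ± 1.88 FPKM. For the box C/D and H/ACA particles that modify ribosomal RNA and the nucleolar scaffolds, 4 of 8 rose and 1 fell, with Nolc1 at 19.5 ± 0.466 and 30.8 ± 0.250 FPKM and Tcof1 at 19.6 ± 1.22 and 34.5 ± 0.989 FPKM. The difference between these lists and the ribosomal protein genes was not tested.

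**Figure D4:**
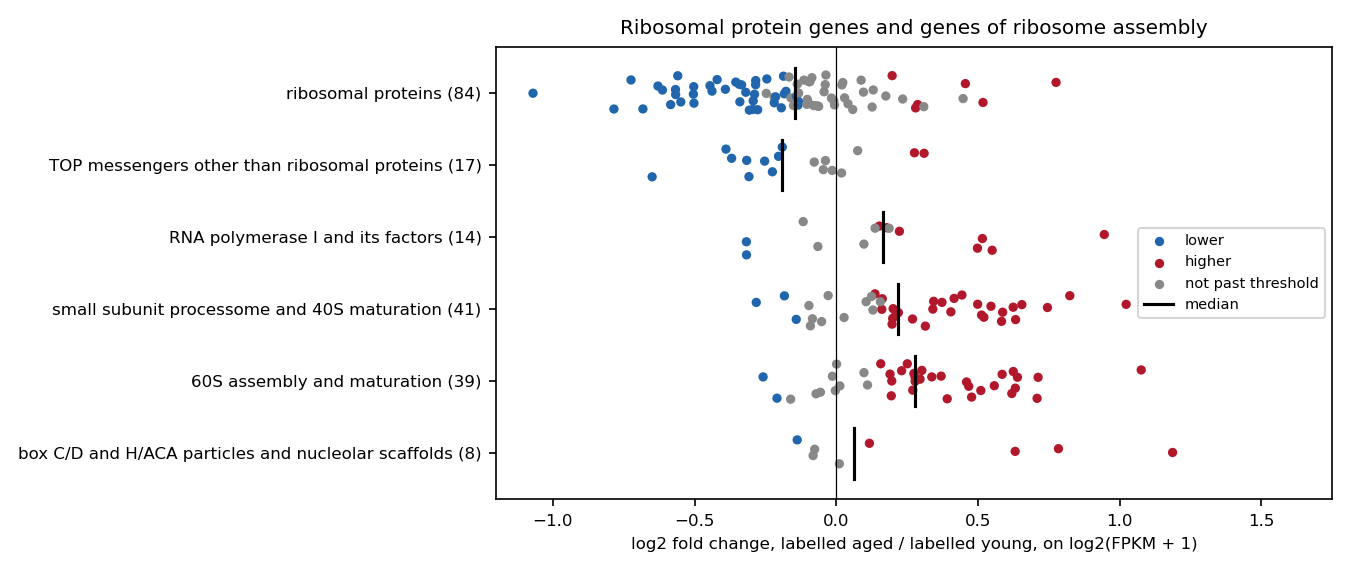
Log2 fold change of each tested gene (dots, blue lower, red higher, grey not past the threshold; spread vertically for view) for ribosomal proteins, other TOP messengers and 4 lists of ribosome production, with the median as a black bar. Medians lie at -0.15 and -0.19 for ribosomal proteins and other TOP messengers and at 0.16, 0.22, 0.28 and 0.064 for the lists of RNA polymerase I, 40S, 60S and RNA-modifying particles.

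RNA polymerase I, which copies the ribosomal RNA genes, showed 7 of 14 genes higher (50%) and 2 lower (14.3%). Among all tested genes 27.7% were higher and 32.3% lower. Its subunit Cd3eap rose from 10.1 ± 0.701 to 20.4 ± 0.598 FPKM and its initiation factor Rrn3 from 11.1 ± 0.0756 to 16.8 ± 0.494 FPKM. Of 5 tested chaperones that guard free ribosomal proteins, 3 rose (60%). Among them, Tsr2, the chaperone of Rps26, rose from 10.6 ± 0.342 to 15.7 ± 0.185 FPKM. Grwd1, that of Rpl3, rose from 13.4 ± 0.506 to 21.6 ± 1.38 FPKM. Of 8 tested host transcripts of small nucleolar RNAs 3 rose and 3 fell (37.5% each), near the shares of all tested genes. Snhg12 was at 10.6 ± 0.284 and 12.6 ± 0.185 FPKM and Snhg8 at 36.7 ± 4.86 and 52.4 ± 1.64 FPKM.

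In the list of mTORC1 and its control of TOP messengers 6 of 16 genes fell (37.5%) and 4 rose (25%), shares near those of all tested genes (32.3% and 27.7%). Sesn2, an inhibitor of mTORC1, rose from 10.5 ± 0.384 to 28.7 ± 0.889 FPKM, and Ddit4, another inhibitor, fell from 33.5 ± 1.15 to 20.8 ± 1.26 FPKM. In a list of 6 genes of ribosomal stress and Myc, 4 rose (66.7%, beside 27.7% of all tested genes) and 2 fell (33.3%, beside 32.3%). The smallest p-values there were those of Mdm2, given above, and of Cdkn1a. Cdkn1a, a cell-cycle inhibitor under p53, rose from 14.9 ± 0.851 to 85.6 ± 1.70 FPKM. Mitochondrial ribosomal proteins, which serve the separate ribosome of mitochondria, gave 30 higher, 13 lower and 34 not past the threshold of 77 tested. Their median was 0.10, and 39.0% were higher and 16.9% lower, beside 27.7% and 32.3% of all tested genes.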

How the data were processed

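The deposited file gives FPKM, as the authors computed them, in 54532 rows and 6 library columns. HISAT2 2.0.5 aligned the reads, per the labels' protocols, to mm10, per the submitters' processing notes. The sources used here do not give the counting program, its handling of multiply aligned reads, the annotation or any use of strand. Multiplied by gene length, 100% of the values were whole multiples of 1 step per library (tolerance 0.01), which gave 16649061 to 17456715 reads per library. All value columns belong to a labelled sample. No pair of libraries agreed within sampling noise (chi-square per degree of freedom at least 2.25).

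Genes with at least 0.5 FPKM in at least 3 of 6 libraries were tested on log2(FPKM + 1), a scale that understates the change of low genes, with limma 3.58.1 in R 4.3.3 (linear model on group, trended empirical Bayes, 2-sided, Benjamini-Hochberg adjustment over all 15197 tested genes, threshold 0.05). Folds are ratios of mean FPKM. Floors (3 reads) cover counting error only. The fit was tested on simulated data. It called 61 of 98 genes changed 1.5-fold, 74 of 95 changed 2-fold and 7 of 14652 unchanged genes. With a mean of at least 10 FPKM, it called 27 of 30 changed 1.5-fold and 40 of 41 changed 2-fold. Far fewer genes changed in the simulation than were called here, and changes under 1.5-fold were not simulated. Pseudogene transcripts were aligned with BLAST 2.17.0. Tables and figures were made in Python 3.11.15 with pandas 2.3.3, numpy 2.4.6, matplotlib 3.10.9 and scipy 1.17.1.

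The members, gene lists and role groups were chosen with earlier results of these data known. Named genes were the 12 largest falls and 6 largest rises among called members without overlap, all role groups, paralogues with their partners, the 5 most and 5 least abundant members, and the 2 smallest p-values of each other list; a few of them are not reported here. Alternatives covered pseudocount, filter, scaling, moderation, the replicate block, each library left out and the threshold. Added after the data were seen were the sums with aligned copies, the removal of both libraries with kidney transcripts and limma's voom on recovered reads.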

Additional observations from a re-analysis of the deposited data

How the results depend on the processing

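Over 24 alternative settings, 28 of the 46 called ribosomal protein genes (26 lower and 2 higher) kept their call in each. The median log2 fold change stayed below 0 in all of them, at -0.080 with median centring and -0.066 with quantile normalization against -0.15, and between -0.19 and -0.12 when single libraries were left out. The count of higher genes was 11 with quantile normalization, 3 without young libraries 1 and 3 (which leaves 1 library against 3), and 5 to 10 with single libraries left out (10 without aged library 3), against 6. Leaving out single libraries gave 35 to 41 lower genes and 8155 to 8708 calls over all genes. Direction turned under quantile normalization for Rplp0 (-0.064) and Rps3 (0.14), among others, and for Rps2 with its pseudogene rows taken by name (0.18) or by alignment (0.18); the cause was not tested. Rpl15, Rpl27, Rpl34, Rpl37a, Rps20, Rps3a1 and Rpl3l, all with small changes or low levels, lost their calls under several settings. The model with the replicate number as a block gave 36 lower, 5 higher and 8441 calls in all. Between the groups, same-numbered libraries had deviations correlated at -0.008 to 0.019 and differently numbered ones at -0.040 to 0.036. These values show no sign of pairing by number, but they cannot tell whether libraries were prepared in pairs. With voom on recovered reads, 51 genes were lower and 5 higher. The planned count models were not run, because the deposited unit is FPKM. For genes near 1 FPKM, depth limits what can be told.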
